A study of Homo sapiens with 8 samples.

Results

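The 8 genes described here carry iron into cells, store it, release it or sense it, or free it from haem. They were chosen by Ensembl gene ID, 8 of 60666 rows in the count table: TFRC (ENSG00000072274, chromosome 3), SLC11A2 (ENSG00000110911, chromosome 12), FTH1 (ENSG00000167996, chromosome 11), FTL (ENSG00000087086, chromosome 19), NCOA4 (ENSG00000266412, chromosome 10), IREB2 (ENSG00000136381, chromosome 15), HMOX1 (ENSG00000100292, chromosome 22) and SLC40A1 (ENSG00000138449, chromosome 2). The symbols come with that choice of IDs, since the table itself holds no names. The table holds reads from RNA that was recovered with biotinylated microRNA duplexes from 786-0 cells, an established human line from a clear cell renal carcinoma that lacks a working VHL gene. Cells received a control duplex (3 libraries), a miR-2355 duplex (2 libraries) or a miR-1271 duplex (3 libraries), and per the design text were collected 48 hours after transfection. All groups were otherwise the same line in the same medium, and the sequence of the control duplex is not given in the sources used here. The rows carry no names that would allow the line's markers to be checked.

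Cells take up transferrin-bound iron through the receptor TFRC, move it across membranes with the transporter SLC11A2 (DMT1), and keep it inside a ferritin shell built of FTH1 and FTL chains. NCOA4 is the receptor that carries ferritin to autophagy, which returns the stored iron, SLC40A1 (ferroportin) is the iron exporter, and HMOX1 (haem oxygenase) frees iron from haem. IREB2 is an iron regulatory protein. When iron is scarce it binds hairpins called iron-responsive elements, which holds back translation of ferritin mRNA and protects TFRC mRNA from decay. A microRNA guides Argonaute to RNAs mainly by pairing through its seed, bases 2 to 8.

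The mature microRNAs behind the 2 pulldowns are shown because their seeds define which RNAs each could pair with. The sequences are RefSeq's, 5′ to 3′, with the seed in capitals. The first lies at chr2:207110043-207110063 on the minus strand and the second at chr5:176367960-176367981 on the plus strand (GRCh38.p14). The seeds differ, so the 2 microRNAs share no seed family.
hsa-miR-2355-5p: aUCCCCAGauacaauggacaa
hsa-miR-1271-5p: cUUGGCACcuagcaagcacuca
Sites for these seeds in the iron transcripts were not searched, because no transcript sequence was used here.

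Part of the iron-responsive element of FTL is shown, up to base 50, where the sequence used here ended. This element is the control point that joins FTL to IREB2. Its loop holds the letters CAGTG, searched here on the sense strand of the first 50 bases after each RefSeq start site. These letters occurred in 6.48% of 35116 windows of that length. Of the 8 genes, 6 had a window (11 windows in all, as some have several starts; FTH1 and HMOX1 had none), and 2 windows held the letters, one of FTL and one at an alternative start of NCOA4. The 30 bases of FTL lie at chr19:48965329-48965358 on the plus strand (GRCh38.p14) and are bases 21 to 50 of the transcript, with the loop letters in capitals from base 39. The match at NCOA4 is a match of letters only.
FTL: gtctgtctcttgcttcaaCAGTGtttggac

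Total counts ran from 4122875 reads in control replicate 2, the shallowest library, to 22864693 in control replicate 1, and the 8 iron genes together took between 0.124% and 0.179% of each library. Levels are given as CPM, each gene's counts per 1000000 reads of the library, after TMM scaling, which corrects for differences in library composition. A level is a share of the RNA recovered, so that abundance in the cells and efficiency of recovery cannot be told apart. Levels are compared between groups for the same gene and not between genes, because no transcript lengths were used. Of the 8 genes, 7 had enough reads to be tested, and SLC40A1 did not. Control replicate 2 stood apart from its mates for HMOX1 above all, and results that rest on it are given with and without it.

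In the miR-2355 pulldown the uptake genes TFRC and SLC11A2 were higher than with the control duplex and the ferritin light chain FTL was lower. In the miR-1271 pulldown SLC11A2, the ferritin receptor NCOA4 and the regulator IREB2 were higher, and HMOX1 was lower. Apart from HMOX1 with miR-1271, each fitted difference from the control was at most 1.44-fold, a small range in which the scaling and single libraries mattered. With miR-2355, 3 of 7 tested genes passed the test (edgeR quasi-likelihood test, Benjamini-Hochberg adjusted p under 0.05), against a background of 29.8% of all 17351 tested genes; with miR-1271, 4 of 7 passed against a background of 40.2%. The median absolute log2 fold change of the 7 genes was 0.46 with miR-2355, beside 0.37 over all tested genes, and 0.38 with miR-1271, beside 0.42. Between the 2 pulldowns none of the 7 passed, against a background of 6.15%. Both comparisons with the control use the same 3 control libraries, so agreement between them is not independent.

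**Figure D1:**
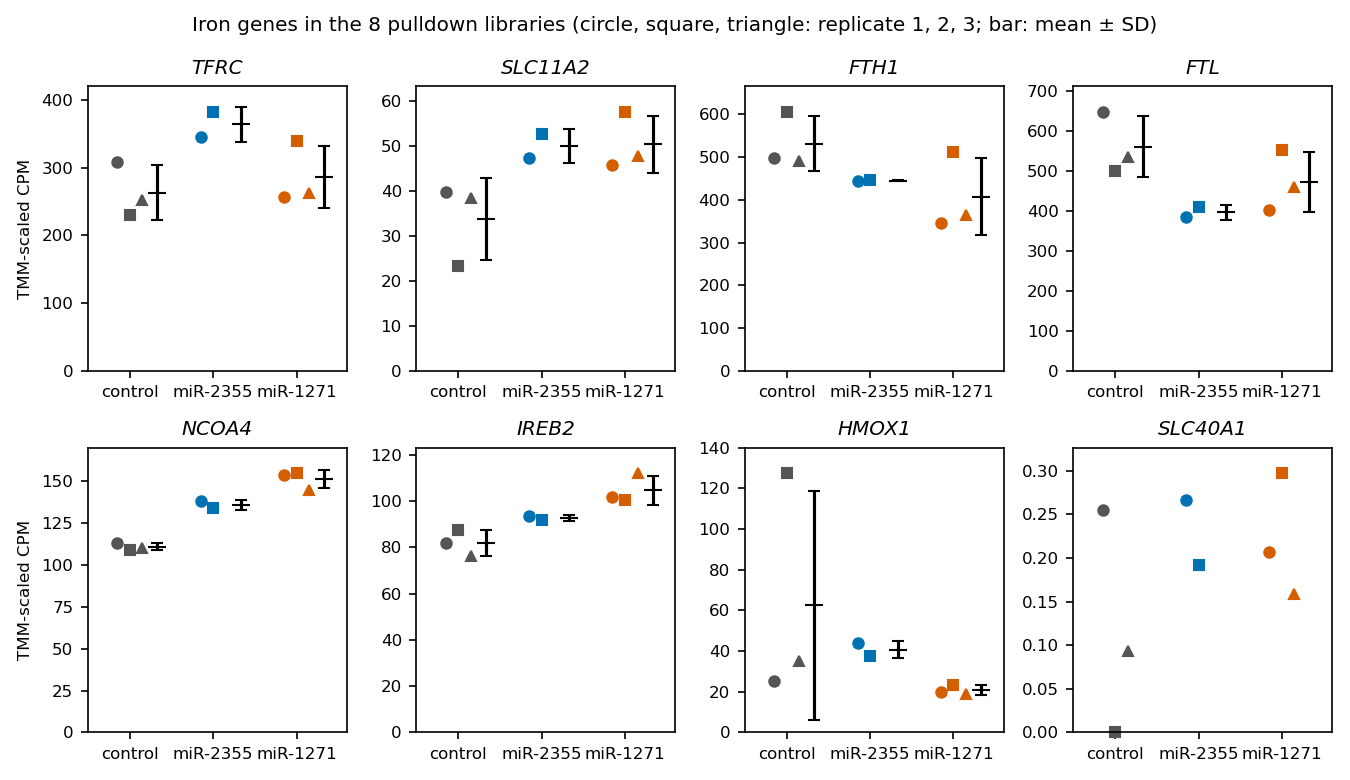
TMM-scaled CPM (vertical axes, from 0) of each of the 8 genes in the control, miR-2355 and miR-1271 libraries, 1 point per library, with mean and SD (n = 3, 2 and 3) to the right of each group and no mean for SLC40A1. NCOA4 steps up from control to miR-2355 to miR-1271 with no overlap, while the HMOX1 controls range from 25.2 to 127 CPM.

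TFRC, the transferrin receptor, stood at 308, 230 and 252 CPM in the control libraries, at 346 and 382 with miR-2355 and at 256, 339 and 263 with miR-1271. Both miR-2355 libraries lay above every other library. The miR-1271 libraries overlapped the controls, with replicate 2 well above the other two. The mean rose from 263 ± 40.3 CPM (SD, n = 3) to 364 ± 25.7 (SD, n = 2) with miR-2355, which is 1.38-fold (95% interval 1.09 to 1.74; log2 0.46 ± 0.16, SE; edgeR adjusted p = 0.0368). Without control replicate 2 the difference was 0.38 (edgeR adjusted p = 0.0967), and it did not pass without control replicate 3 or either miR-2355 library (0.0814 to 0.180). With miR-1271 the mean was 286 ± 45.8 CPM (SD, n = 3) and the log2 difference 0.12 ± 0.14 (SE; edgeR adjusted p = 0.546), with a 95% interval of -0.19 to 0.42. Between the pulldowns TFRC was 1.27-fold higher with miR-2355 (95% interval 1.01 to 1.61), which did not pass (edgeR adjusted p = 0.206).

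SLC11A2, which carries ferrous iron out of endosomes, was read at 39.8, 23.3 and 38.4 CPM in the controls. It stood at 47.2 and 52.5 CPM with miR-2355 and at 45.7, 57.5 and 47.8 with miR-1271. All 5 microRNA libraries exceeded all 3 controls, and control replicate 2 was the lowest library, with 102 reads. SLC11A2 was the one gene of the 8 that passed the edgeR test in both pulldowns, rising 1.43-fold with miR-2355 (log2 0.52 ± 0.18, SE; edgeR adjusted p = 0.0353) and 1.44-fold with miR-1271 (log2 0.53 ± 0.16, SE; edgeR adjusted p = 0.0150). Without control replicate 2 these were 0.35 (edgeR adjusted p = 0.0713) and 0.36 (edgeR adjusted p = 0.0366). The miR-2355 rise also did not pass without either miR-2355 library or in a fit of those 2 groups alone (0.55, edgeR adjusted p = 0.0528), and the miR-1271 rise did not without miR-1271 replicate 2 (0.44, edgeR adjusted p = 0.0720) or with library totals in place of TMM (0.39, edgeR adjusted p = 0.0618). The pulldowns differed from each other by -0.01 on the log2 scale, with a 95% interval of -0.39 to 0.36 (0.765-fold to 1.28-fold).

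FTL, the ferritin light chain, which favours iron core formation, stood at 648, 500 and 537 CPM in the controls and at 384 and 411 with miR-2355. With miR-1271 it stood at 403, 552 and 462 CPM. Both miR-2355 libraries lay below all controls, whereas the miR-1271 libraries overlapped them. The mean fell from 562 ± 77.3 CPM (SD, n = 3) to 397 ± 18.7 (SD, n = 2) with miR-2355, a difference of -0.50 ± 0.16 on the log2 scale (SE; edgeR adjusted p = 0.0302). The call did not hold without control replicate 1 (-0.39, edgeR adjusted p = 0.0683), control replicate 3 or either miR-2355 library, with upper-quartile scaling (-0.42, edgeR adjusted p = 0.0693) or in a fit of those 2 groups alone (-0.47, edgeR adjusted p = 0.0564). With miR-1271 the log2 difference was -0.25 ± 0.15 (SE; edgeR adjusted p = 0.181), and passed with library totals (-0.40, edgeR adjusted p = 0.0365). It was -0.14 without either control replicate 1 (edgeR adjusted p = 0.457) or miR-1271 replicate 1 (edgeR adjusted p = 0.553).

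FTH1, the ferritin heavy chain, carries the ferroxidase activity that oxidises iron for storage. Its levels were 498, 606 and 491 CPM in the controls, 445 and 445 with miR-2355, and 346, 512 and 365 with miR-1271. The miR-2355 libraries lay below all controls, and of the miR-1271 libraries replicates 1 and 3 lay below them and replicate 2 among them. The log2 differences were -0.26 ± 0.17 (SE; edgeR adjusted p = 0.289) with miR-2355 and -0.38 ± 0.15 (SE; edgeR adjusted p = 0.0591) with miR-1271, neither past the threshold. The second passed without miR-1271 replicate 2 (-0.57, edgeR adjusted p = 0.00810) or control replicate 1 (-0.43, edgeR adjusted p = 0.0409), with library totals (-0.54, edgeR adjusted p = 0.0105), without the low-count filter (-0.40, edgeR adjusted p = 0.0288) and with DESeq2 (-0.36, DESeq2 adjusted p = 0.0484). It was smaller without control replicate 2 (-0.28, edgeR adjusted p = 0.179), without miR-1271 replicate 1 (-0.27, edgeR adjusted p = 0.268) or 3 (-0.29, edgeR adjusted p = 0.224), and with upper-quartile scaling (-0.28, edgeR adjusted p = 0.160). The miR-2355 difference was -0.15 without control replicate 2 (edgeR adjusted p = 0.552). The pass without the low-count filter rested on standard errors nearly alike for all 7 genes, as set out for HMOX1 below. Both ferritin genes have processed copies elsewhere in the genome, and reads shared with those rows could not be traced because the rows have no names here.

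NCOA4, which delivers ferritin to lysosomes, had the smallest spread of the 8 genes among the control libraries. It stood at 113, 109 and 110 CPM in the controls, 138 and 134 with miR-2355 and 154, 155 and 145 with miR-1271. The 3 groups did not overlap and lay in that order. The spread between control libraries (coefficient of variation 1.87%) was no larger than that expected from counting reads alone (3.10%), whereas for TFRC it was 15.3% against 2.10%. NCOA4 rose with miR-1271 1.36-fold (95% interval 1.17 to 1.59; log2 0.45 ± 0.11, SE; edgeR adjusted p = 0.00303), and passed under all 17 alternatives run, with values of 0.30 to 0.55. With miR-2355 the difference was 0.30 ± 0.12 (SE) and did not pass (edgeR adjusted p = 0.0672), although it did with the DESeq2 test (0.32, DESeq2 adjusted p = 0.0263), DESeq2's size factors (0.32, edgeR adjusted p = 0.0460) and upper-quartile scaling (0.38, edgeR adjusted p = 0.0213). The pulldowns differed by -0.15 ± 0.12 (SE; edgeR adjusted p = 0.474).

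IREB2, an iron regulatory protein, followed the same order. It stood at 81.8, 87.6 and 76.5 CPM in the controls, 93.5 and 91.8 with miR-2355, and 102, 100.4 and 112 with miR-1271. No library of one group overlapped another group. IREB2 rose with miR-1271 1.28-fold (log2 0.36 ± 0.11, SE; edgeR adjusted p = 0.0152) and did not pass with miR-2355, at 0.18 ± 0.12 (SE; edgeR adjusted p = 0.278). The rise did not pass without control replicate 3 (0.31, edgeR adjusted p = 0.0830) or miR-1271 replicate 3 (0.32, edgeR adjusted p = 0.0584), with library totals in place of TMM (0.21, edgeR adjusted p = 0.177) or without the low-count filter (0.34, edgeR adjusted p = 0.0770). In that last setting the standard errors were nearly alike for all 7 genes, as set out for HMOX1 below. The 2 groups of libraries in a comparison also failed to overlap in 52.7% of all tested genes for miR-2355 against control, 49.9% for miR-1271 against control and 41.5% for the 2 pulldowns, so separation without overlap was common in these data. Among the 7 genes it occurred for 6, 4 and 4.

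**Figure D2:**
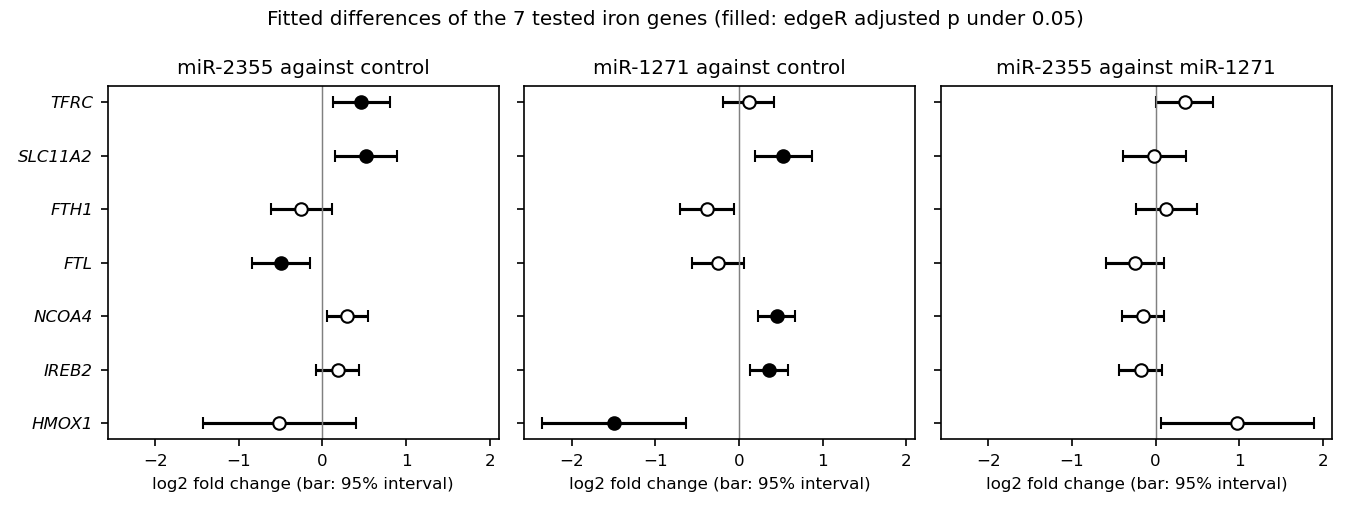
Fitted log2 fold changes (horizontal axes) of the 7 tested genes in the 3 comparisons, with 95% intervals; filled points had an edgeR adjusted p under 0.05. With miR-2355 the filled points are TFRC, SLC11A2 and FTL, with miR-1271 SLC11A2, NCOA4, IREB2 and HMOX1, and none in the direct comparison.

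HMOX1, the inducible haem oxygenase and a gene that responds to haem and oxidative stress, varied most between control libraries among the 7 tested genes and had the largest fitted difference with miR-1271. It stood at 25.2, 127 and 35.1 CPM in the controls, from 593, 558 and 754 reads, at 43.8 and 37.6 with miR-2355, and at 19.97, 23.4 and 18.9 with miR-1271. Control replicate 2 held the highest value of all libraries, and every miR-1271 library lay below every other library. That control exceeded the mean of its 2 mates by 2.09 on the log2 scale, the second highest such excess among 13683 genes with a mean log2 CPM of at least 1, for which the median absolute deviation in that library was 0.20. In the same library SLC11A2 lay 0.74 below its mates, TFRC 0.28 below and FTH1 0.29 above.

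With miR-1271, HMOX1 fell 2.82-fold (log2 -1.49 ± 0.41, SE; edgeR adjusted p = 0.00785). Without control replicate 2 it still fell, with log2 -0.54 ± 0.16 (SE; edgeR adjusted p = 0.0106). With miR-2355 the sign turned on that 1 library: the log2 difference from control was -0.52 ± 0.43 (SE; edgeR adjusted p = 0.398) with all libraries and 0.43 ± 0.17 (SE; edgeR adjusted p = 0.0588) without control replicate 2, and passed in neither. It passed with all libraries when the low-count filter was left out (-0.47, edgeR adjusted p = 0.0283). The controls do not enter the difference between the pulldowns, which was 0.98 with and without that library, or 1.97-fold higher with miR-2355 (95% interval 1.04 to 3.72). They do enter the shared estimate of the spread: the adjusted p (edgeR) was 0.191 with all libraries, 0.000777 without control replicate 2 and 0.000266 in a fit of the 5 microRNA libraries alone. Without the low-count filter, with all 3 controls kept, the difference was 1.02 (edgeR adjusted p = 7.9e-08). In that setting the standard errors of the 7 genes all lay between 0.14 and 0.16, HMOX1 included, so they no longer followed each gene's own spread. HMOX1 was thus the single gene of the 8 for which any alternative passed in the direct comparison. What set control replicate 2 apart was not tested.

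**Figure D3:**
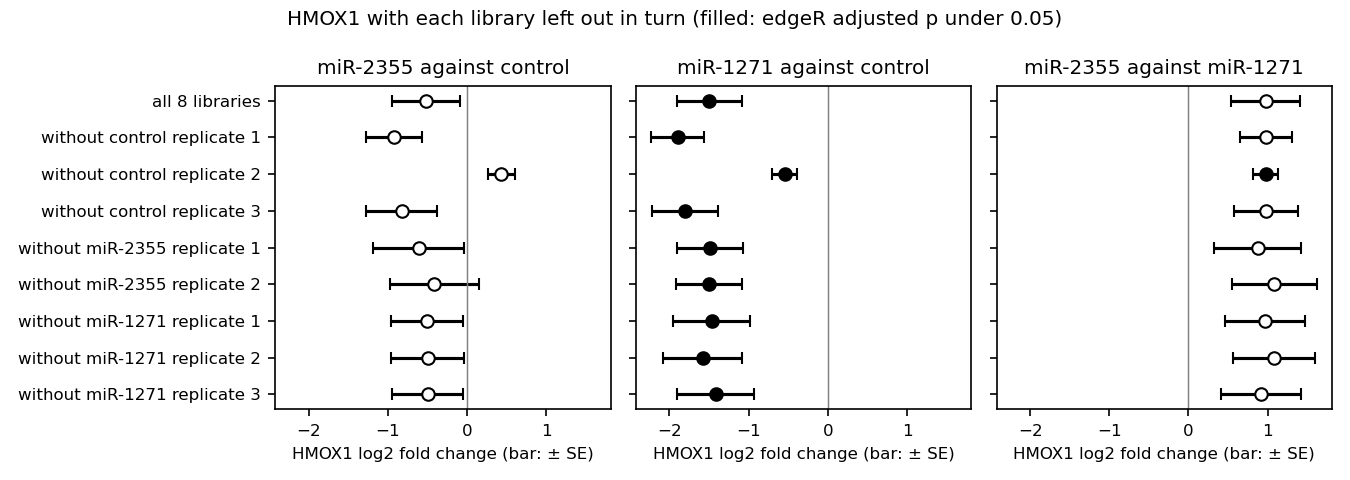
Log2 fold change of HMOX1 (horizontal axes, bars ± SE) in the 3 comparisons with all 8 libraries and with each library left out; filled points had an edgeR adjusted p under 0.05. Leaving out control replicate 2 moves the miR-2355 value from -0.52 to 0.43 and the miR-1271 value from -1.49 to -0.54, and leaves the direct difference at 0.98.

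SLC40A1, the iron exporter, was barely recovered. It had 6, 0 and 2 reads in the controls, 5 and 3 with miR-2355 and 2, 3 and 2 with miR-1271, 23 reads in all. Pooled over libraries, with no TMM scaling, these were 0.168 CPM in the controls (exact 95% Poisson interval 0.0724 to 0.330), 0.238 with miR-2355 (0.103 to 0.470) and 0.203 with miR-1271 (0.0817 to 0.419). The intervals overlap throughout, so no difference was detectable at this depth. The count of 0 in control replicate 2 allows up to 0.728 CPM (3 reads). These limits reflect counting alone; with no molecular identifiers, several reads can stem from 1 molecule.

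Ratios of 2 genes within a library need no scaling between libraries. Each ratio is compared between groups for the same pair only, because no transcript lengths were used. TFRC had 0.475, 0.459 and 0.469 reads per read of FTL in the controls, 0.900 and 0.931 with miR-2355, and 0.637, 0.614 and 0.569 with miR-1271. The 3 groups were widely separated relative to their spread. The mean log2 ratio was 0.97 higher with miR-2355 than with the control, or 1.96-fold, 0.37 higher with miR-1271, and 0.59 higher in the first pulldown than in the second. The exact permutation p (two-sided) was 0.2, 0.1 and 0.2, each the smallest that these group sizes allow, and 0.341 after Benjamini-Hochberg adjustment over the 63 relations computed (21 pairs of the 7 genes in 3 comparisons). This pair is described because it sets the uptake receptor against storage, but its control range of 0.05 on the log2 scale was the narrowest of the 21 pairs, so its tightness was seen among many.

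The 2 ferritin subunits were compared in the same way. FTH1 had 0.769, 1.21 and 0.915 reads per read of FTL in the controls, 1.16 and 1.08 with miR-2355 and 0.860, 0.928 and 0.791 with miR-1271. The controls spanned both pulldowns, and the pulldowns did not overlap each other. Control replicate 2 alone gave the upper end of the controls. The other controls, at 0.769 and 0.915, lay below both miR-2355 libraries and still overlapped the miR-1271 libraries. The ratio was not tested without control replicate 2. Against the control the log2 ratio differed by 0.24 with miR-2355 and -0.14 with miR-1271 (exact permutation p = 0.6 and 0.7, two-sided), and between the pulldowns by 0.39 (exact permutation p = 0.2, the smallest possible; adjusted 0.341). NCOA4 had 0.227, 0.180 and 0.224 reads per read of FTH1 in the controls, 0.310 and 0.300 with miR-2355 and 0.443, 0.302 and 0.397 with miR-1271, so that all 5 microRNA libraries exceeded the controls. Its log2 ratio exceeded the control by 0.55 with miR-2355 and by 0.85 with miR-1271 (exact permutation p = 0.2 and 0.1, two-sided, again the smallest possible). Separation of this kind was common among the 21 pairs: 10 did not overlap for miR-2355 against control, 13 for miR-1271 against control and 13 for the 2 pulldowns. The pairs share the same 7 genes, so they are not separate observations, and the share among other pairs of genes was not computed.

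**Figure D4:**
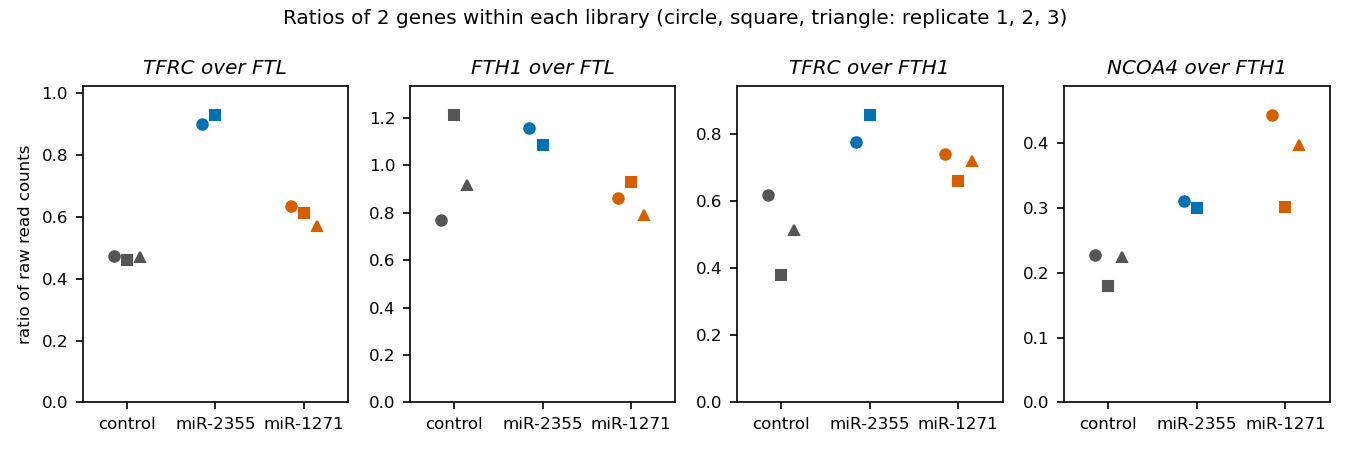
Raw read counts of one gene divided by those of another in the same library (vertical axes, from 0), 1 point per library, for TFRC over FTL, FTH1 over FTL, TFRC over FTH1 and NCOA4 over FTH1. TFRC over FTL is 0.459 to 0.475 in the controls, 0.569 to 0.637 with miR-1271 and 0.900 to 0.931 with miR-2355.

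Across the 8 libraries the log2 levels of IREB2 and NCOA4 were most alike among the 21 pairs of the tested genes, with a Pearson correlation of 0.86, followed by SLC11A2 and NCOA4 at 0.77. The pair with the most opposed levels was SLC11A2 and HMOX1 at -0.79, which was -0.10 without control replicate 2. FTH1 and NCOA4 stood at -0.67 and at -0.53 without that library. FTH1 and FTL correlated at 0.56. These values describe 8 libraries that share the same scaling and differ by group. Over all genes with a mean log2 CPM of at least 1, the row most like each of the 7 genes reached 0.97 to 0.99. Each of these was the highest of 13682 correlations over only 8 libraries, and the rows have no names here.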

How the data were processed

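RNA recovered with biotinylated duplexes was sequenced in 8 libraries: 3 control, 2 miR-2355 and 3 miR-1271, grouped by their titles. The authors deposited raw read counts per Ensembl gene ID. The submitters' processing notes list featureCounts, BWA and build GRCh38 (hg38); annotation release, strand and multiple matches: not given in the sources used here. As an aligner BWA does not splice reads, which can lower counts of genes with short exons in every library alike, and without a known strand setting reads of overlapping antisense genes cannot be told apart.

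All 60666 rows entered an edgeR 4.0.16 fit in R 4.3.3: filterByExpr kept 17351 genes, scaling was TMM, and 1 quasi-likelihood model with a mean per group covered all 8 libraries. P-values were adjusted by Benjamini-Hochberg over all tested genes, with a threshold of 0.05; only the rows of the 8 iron genes are reported. Standard errors are the absolute log2 fold change over the square root of F. DESeq2 1.42.0 served as an alternative. The procedure was also run on simulated counts. The smallest fold change simulated was larger than every called difference except that of HMOX1, so that run does not bear on those calls. Whether replicate libraries are separate cultures is not stated in the labels, and p-values therefore reflect library-to-library spread that may be technical. No replicate pair was alike within sampling noise (chi-square over degrees of freedom 6.21 to 21.2).

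All 8 genes are named throughout, by rule. Positions and sequences are RefSeq's (GRCh38.p14), matched by symbol for all 8 genes. That table pairs none of the Ensembl IDs, so 6 further lists (111 iron and haem genes), the cell line's markers and sums over ferritin copies were not run. The members, lists and tests were chosen with earlier results of these data known.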

Additional observations from a re-analysis of the deposited data

How the results depend on the processing

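Each comparison was rerun under 17 alternatives: other scalings, no low-count filter, DESeq2, a replicate block, a fit of only the groups compared, equal depth, a looser threshold and leaving out each library. With miR-2355 against control, 3 genes passed. The number was 1 in a fit of those 2 groups alone, 0 with the replicate block, and 1 to 3 on leaving out 1 control or miR-1271 library. It was 4 with DESeq2, with DESeq2's size factors, without the low-count filter and at the looser threshold. Without that filter the standard errors were nearly alike for all 7 genes, as set out for HMOX1. The range leaves out the miR-2355 libraries, because dropping either leaves 1 library in that group. Without miR-2355 replicate 1 or 2 the log2 differences were 0.56 and 0.39 for TFRC, 0.61 and 0.44 for SLC11A2, and -0.43 and -0.55 for FTL. Those calls are described with each gene above. With miR-1271, 4 passed, 5 with the block, and 3 to 5 on leaving out 1 library; these were 3 higher and 1 lower with TMM but 1 higher and 3 lower with library totals. In the direct comparison 0 passed; 1, HMOX1, passed without the low-count filter and in the fit of 2 groups, and 0 to 1 on leaving out 1 library. No pairing by replicate number was seen: 0 of 7 same-number pairs correlated above 0.1, and 0 of 8 libraries were most like one of their own number. The 2 miR-2355 libraries deviate from their group mean by equal and opposite amounts, so this check cannot exclude pairing. Under the block the miR-2355 log2 differences were 0.42 for TFRC, 0.55 for SLC11A2 and -0.53 for FTL.

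Signs turned for HMOX1 with miR-2355 (from -0.52 to 0.43 without control replicate 2; -0.92 to 0.43 over the libraries left out) and for differences close to 0. TFRC with miR-1271 went from 0.12 to -0.033 with library totals, and to between -0.0097 and 0.24 on leaving out 1 library, the lowest without miR-1271 replicate 2. SLC11A2 in the direct comparison went from -0.01 to 0.11 with library totals, 0.026 without the filter, 0.0056 with the replicate block, 0.031 at equal depth, and to between -0.090 and 0.10 on leaving out 1 library. With library totals, the median over all genes shifted by -0.15 (log2) for miR-1271 against control and by 0.13 in the direct comparison. The cause of the remaining sign changes was not tested. Of 357 values of single genes, 309 kept direction and side of the threshold, 23 no longer passed, 16 newly passed and 9 turned sign. Control replicate 2, at 4122875 reads, limits the rarer genes, with 102 reads of SLC11A2.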
